A study of Mus musculus with 12 samples.

Results

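Angptl7, Nmb, Cys1 and Odf3l2 are 4 little-studied genes of mouse muscle, taken from the 10475 genes of the deposited TPM table because each had a lower level at ZT12 than at ZT0 in both genotypes. Those levels chose them, so their difference between the times is described here with no test. TPM is a read count scaled for transcript length and library depth. All 4 were among the 10415 genes tested, which reached 1 TPM in 3 or more libraries. The RNA came from gastrocnemius, a calf muscle, and gave 12 libraries in 4 groups of 3. The groups were mice with liver-specific E4BP4 overexpression (TG) at ZT12, wild type mice (WT) at ZT12, TG at ZT0 and WT at ZT0. All were 8-week-old C57BL/6 mice on chow under 12 h of light and 12 h of dark, and ZT counts hours from lights on. The transgene is described as acting in the liver, while the RNA came from muscle, so TG libraries show muscle of an animal altered elsewhere. The promoter that drives it, the number of founder lines and the sex are not given in the sources used here. Nothing says that the 3 libraries of a group came from separate mice, so p-values measure the spread between these libraries, which may be technical.

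The 4 genes belong to unrelated families. Angptl7 encodes a secreted protein of the angiopoietin-like family, which carries a coiled coil and a fibrinogen-like domain. In humans it is best known from the cornea and the outflow tissue of the eye, where glucocorticoids raise it. Nmb encodes neuromedin B, a bombesin-like peptide that acts through a G protein-coupled receptor and is known from brain and gut. Cys1 encodes cystin, a lipid-anchored protein of the primary cilium, whose loss in the cpk mouse causes cystic kidney disease. Odf3l2 is named for its likeness to a protein of the outer dense fibres of the sperm tail. E4BP4, the product of Nfil3, is a repressor that binds D-box elements and takes part in the output of the circadian clock, in which PER and CRY proteins repress BMAL1 and CLOCK, and REV-ERB proteins repress Arntl.

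The sequences just upstream of the genes are shown because 3 of the 4 genes have an entry in the RefSeq promoter table (build GRCm38.p6), and because clock and hormone elements are usually sought there. Each is the 250 bases before the annotated start, written 5′ to 3′ on the strand of the gene, which is the minus strand in all 3 cases. The windows are chr4:148500463-148500712 for Angptl7, chr7:80905063-80905312 for Nmb and chr12:24681796-24682045 for Cys1. Capitals mark the searched motifs.
Angptl7: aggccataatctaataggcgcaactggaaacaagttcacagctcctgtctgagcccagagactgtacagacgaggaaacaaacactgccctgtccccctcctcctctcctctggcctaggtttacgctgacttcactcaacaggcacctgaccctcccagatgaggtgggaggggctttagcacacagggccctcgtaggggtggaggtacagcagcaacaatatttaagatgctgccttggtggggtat
Nmb: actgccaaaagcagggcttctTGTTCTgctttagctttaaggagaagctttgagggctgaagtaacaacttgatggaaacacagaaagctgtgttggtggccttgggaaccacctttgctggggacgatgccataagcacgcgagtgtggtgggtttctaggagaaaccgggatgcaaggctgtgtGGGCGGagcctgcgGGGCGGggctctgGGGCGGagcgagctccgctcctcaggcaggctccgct
Cys1: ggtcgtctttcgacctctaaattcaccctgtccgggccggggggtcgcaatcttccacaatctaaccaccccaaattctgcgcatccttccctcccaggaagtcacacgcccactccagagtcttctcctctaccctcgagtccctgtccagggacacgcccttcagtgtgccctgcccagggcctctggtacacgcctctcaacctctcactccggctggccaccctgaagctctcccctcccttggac
The windows searched were these 250 bases, on both strands, for 7 motifs. CACGTG (the E-box bound by CLOCK and BMAL1) occurred in 6.02% of the 32851 windows of the table, TTANNTAA (the core of the D-box) in 5.43%, and AGGTCA (the core of nuclear receptor sites) in 14.0%. The full glucocorticoid response element (AGAACA, any 3 bases, TGTTCT) occurred in 3 windows, its arm TGTTCT alone in 16.1%, the GC box GGGCGG in 32.7% and the TATA box TATAAA in 12.4%. Angptl7 and Cys1 held none of the 7. Nmb held TGTTCT once, 229 to 224 bases before its start, and GGGCGG 3 times, at 64 to 59, 50 to 45 and 37 to 32 bases before it, with no overlap between matches. GC content was 54.4% in the Angptl7 window, 58% in that of Nmb and 61.2% in that of Cys1, against a median of 52.4% over all windows. These matches describe letters only.

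Reads in listed genes, recovered from TPM and transcript length, summed, in units of 1e+06 reads, to 13.1 to 15.8 in TG ZT12, 17.7 to 20.2 in WT ZT12, 10.4 to 11.5 in TG ZT0 and 9.21 to 13.1 in WT ZT0. The libraries of ZT12 were therefore deeper than most of those of ZT0. WT ZT0 replicate 2 stood apart, with a median r of 0.946 to the other libraries on the log2 scale, against 0.975 to 0.985 for the other 11. TG ZT12 replicate 1 had the lowest median level (4.96 TPM) and WT ZT0 replicate 2 the highest (9.26 TPM). Skeletal muscle fibre markers were all present, and their summed level lay between 98948 and 112786 TPM in every library. Nfil3 in muscle averaged 14.8 ± 5.02 TPM in TG and 14.5 ± 3.92 TPM in WT (SD, n = 6 each), which checks no label, since the transgene is in the liver.

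Clock genes ran against what the labelled times would lead a reader to look for. In mouse tissues under a light and dark cycle, Per2 RNA is known to be high around the start of the dark and Arntl RNA around the start of the light. Here Per2 averaged 0.366 ± 0.111 TPM in the libraries labelled ZT12 and 2.57 ± 0.384 TPM in those labelled ZT0 (SD, n = 6 each, limma adjusted p = 2.19e-05). Arntl averaged 8.21 ± 2.19 TPM in those labelled ZT12 and 4.56 ± 0.729 TPM in those labelled ZT0, a difference that did not pass (limma adjusted p = 0.0666). Whether the labels give the time of sampling as usually counted was not tested. ZT0 and ZT12 below mean the labelled times, and no statement here gives the phase of light or dark in which a gene is high.

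Angptl7 showed the lowest ZT12 minus ZT0 difference of log2(TPM + 1) among all 10415 genes tested. As a ratio of mean TPM, ZT0 over ZT12, Cys1 changed more (4.86 against 4.43 for Angptl7). The gene lies on mm10 chromosome 4, from 148495280 to 148500462 on the minus strand, inside the span of Mtor, which runs on the plus strand. Angptl7 had 3.10, 3.51 and 4.14 TPM in TG ZT12, 6.64, 4.85 and 3.34 TPM in WT ZT12, 14.8, 13.5 and 25.8 TPM in TG ZT0, and 19.3, 18.2 and 21.5 TPM in WT ZT0. Every ZT12 library lay below every ZT0 library, and the lowest ZT0 library stood at 2.04 times the highest ZT12 library. The ZT12 mean was 19.8% of the ZT0 mean in TG and 25.1% in WT. On the log2(TPM + 1) scale the difference was -2.01 in TG and -1.83 in WT, and it ranked first from the lowest in both. The spread was widest in TG ZT0 (CV 37.6%) and narrowest in WT ZT0 (8.43%), since TG ZT0 replicate 3 was higher than every other library.

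Nmb, the other secreted product, lies on chromosome 7, from 80902227 to 80905062 on the minus strand. Its level was 3.22, 2.95 and 2.65 TPM in TG ZT12, 2.18, 2.64 and 3.13 TPM in WT ZT12, 6.35, 7.93 and 8.70 TPM in TG ZT0, and 9.71, 6.76 and 7.85 TPM in WT ZT0. The 6 libraries of ZT12 stayed between 2.18 and 3.22 TPM, and the 6 of ZT0 between 6.35 and 9.71 TPM, with no overlap. The ZT12 mean was 38.4% of that of ZT0 in TG and 32.7% in WT. The log2(TPM + 1) difference was -1.13 in TG (rank 20 from the lowest) and -1.32 in WT (rank 22).

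Cys1 was the lowest of the 4 genes, with a mean over the 12 libraries of 1.90 TPM, higher than 13.2% of the genes tested. It lies on chromosome 12, from 24665838 to 24681795 on the minus strand. Cys1 stood at 0.630, 0.613 and 0.659 TPM in TG ZT12, 0.787, 0.557 and 0.651 TPM in WT ZT12, 3.77, 3.71 and 3.24 TPM in TG ZT0, and 3.13, 3.06 and 2.04 TPM in WT ZT0. No library of ZT12 reached 1 TPM and none of ZT0 was under 2.04 TPM. Cys1 therefore passed the filter of 1 TPM in 3 or more libraries through its ZT0 libraries alone. The ZT12 mean was 17.7% of the ZT0 mean in TG, the smallest such share among the 4 genes, and 24.2% in WT. The log2(TPM + 1) difference was -1.48 in TG and -1.16 in WT, a scale that understates the change of a gene this low.

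Odf3l2 was the highest of the 4 genes (21.1 TPM over the 12 libraries), higher than 79.2% of the genes tested. It lies on chromosome 10, from 79639526 to 79645738 on the minus strand. Odf3l2 had 15.8, 13.1 and 10.9 TPM in TG ZT12, 9.49, 8.33 and 8.93 TPM in WT ZT12, 44.5, 24.7 and 35.5 TPM in TG ZT0, and 26.4, 19.6 and 36.4 TPM in WT ZT0. The times did not overlap, but the gap was narrow, with the lowest ZT0 library at 1.24 times the highest ZT12 library. Within 1 genotype the gap was wider. The ZT12 mean was 38.0% of the ZT0 mean in TG and 32.5% in WT, and the log2(TPM + 1) difference was -1.31 in TG and -1.48 in WT (rank 11 in both).

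**Figure D1:**
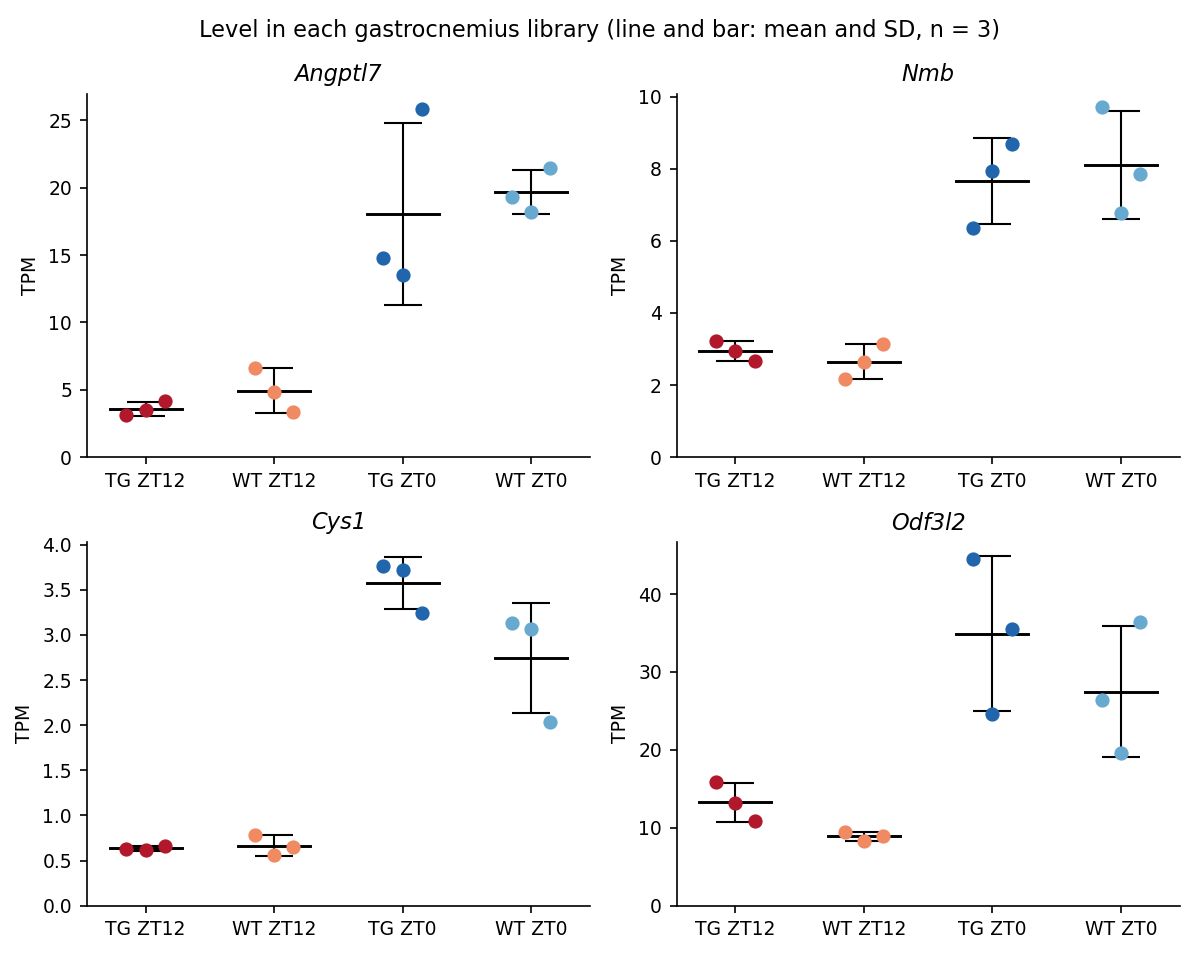
Level in TPM (vertical axis, from 0) of each gene in the 12 libraries, by group. Points are libraries, and the line and bar are the mean and SD (n = 3). In each panel the 6 ZT12 points lie below the 6 ZT0 points, with the narrowest gap in Odf3l2, at 15.8 TPM in TG ZT12 and 19.6 TPM in WT ZT0.

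Over both genotypes, the ranges of 6 ZT12 and 6 ZT0 libraries did not overlap, with ZT12 lower, in 0.989% of the genes tested. The 4 genes were chosen on this contrast, so their place in that share says nothing further. Ordered by group mean, Angptl7 ran TG ZT12, WT ZT12, TG ZT0, WT ZT0, and Nmb ran WT ZT12, TG ZT12, TG ZT0, WT ZT0. Cys1 ran TG ZT12, WT ZT12, WT ZT0, TG ZT0, and Odf3l2 ran WT ZT12, TG ZT12, WT ZT0, TG ZT0. Neighbouring groups of the same time overlapped in 6 of 8 cases, the exceptions being Cys1 at ZT0 and Odf3l2 at ZT12, both with TG higher. Among the genes tested, TG lay wholly above WT in 0.528% at ZT12 and 1.4% at ZT0, and wholly below in 4.26% at ZT12 and 3.22% at ZT0. The median ZT12 minus ZT0 difference of all genes tested was -0.01 in TG and -0.05 in WT. When TG ZT12 replicate 1 and WT ZT0 replicate 2 were left out, the differences of the 4 genes lay between -1.93 and -1.18 in TG and between -1.89 and -1.09 in WT. Fewer cells of a type and less RNA per cell cannot be told apart in bulk muscle.

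**Figure D2:**
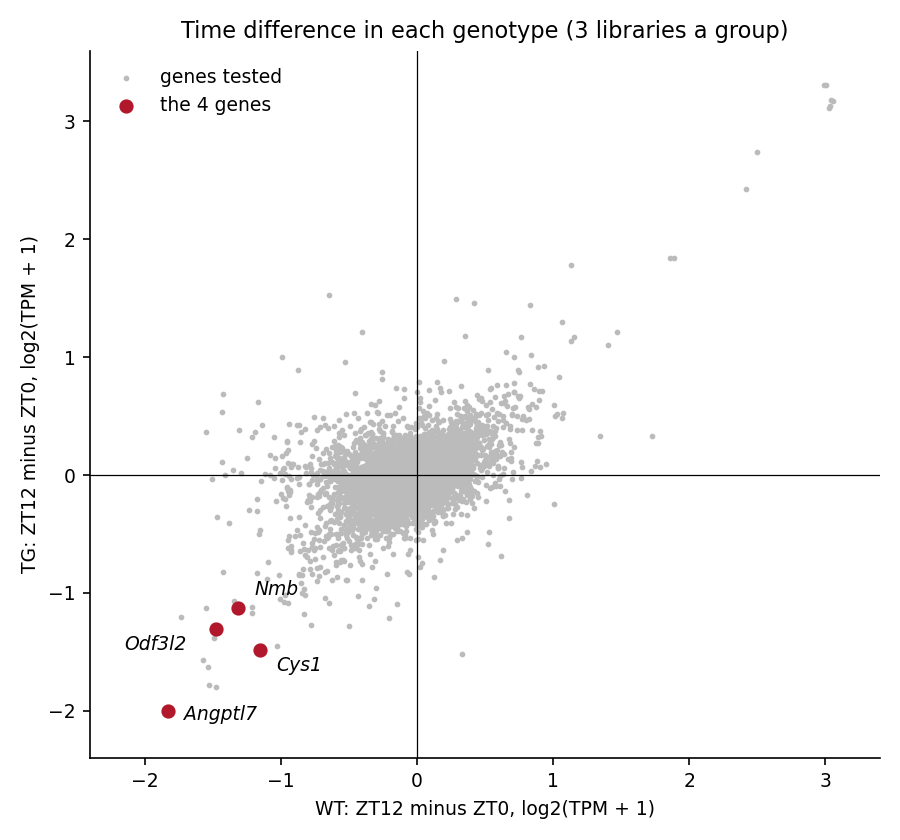
ZT12 minus ZT0 difference of mean log2(TPM + 1) in WT (horizontal axis) and TG (vertical axis), 3 libraries a group, for the 10415 genes tested (grey) and the 4 genes (red). The 4 genes lie in the lower left, with Angptl7 at -1.83 in WT and -2.01 in TG.

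The reads behind these levels differed widely between genes. Angptl7 rested on 116 to 322 reads a library at ZT12 and 339 to 779 at ZT0, and Odf3l2 on 213 to 358 at ZT12 and 343 to 690 at ZT0. Nmb rested on 33 to 52 reads at ZT12 and 54 to 87 at ZT0, and Cys1 on 19 to 34 at ZT12 and 53 to 87 at ZT0. Summed over the 6 libraries of a time, ZT12 against ZT0, the reads were 1087 against 3094 for Angptl7, 231 against 422 for Nmb, 146 against 452 for Cys1 and 1641 against 3062 for Odf3l2. The reads were thus fewer at ZT12 although those libraries were mostly deeper. They were recovered from the TPM values the genes were chosen on, so they are no separate evidence of the time difference. Before any scaling for depth, the ranges of reads did not overlap between the times for Angptl7, Nmb and Cys1 and did for Odf3l2. The gap was narrow for Angptl7 (322 against 339 reads) and Nmb (52 against 54 reads). The share of all genes tested whose ranges of reads do not overlap was not computed. The lack of overlap in reads therefore describes these genes only and cannot be set against a background.

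**Figure D3:**
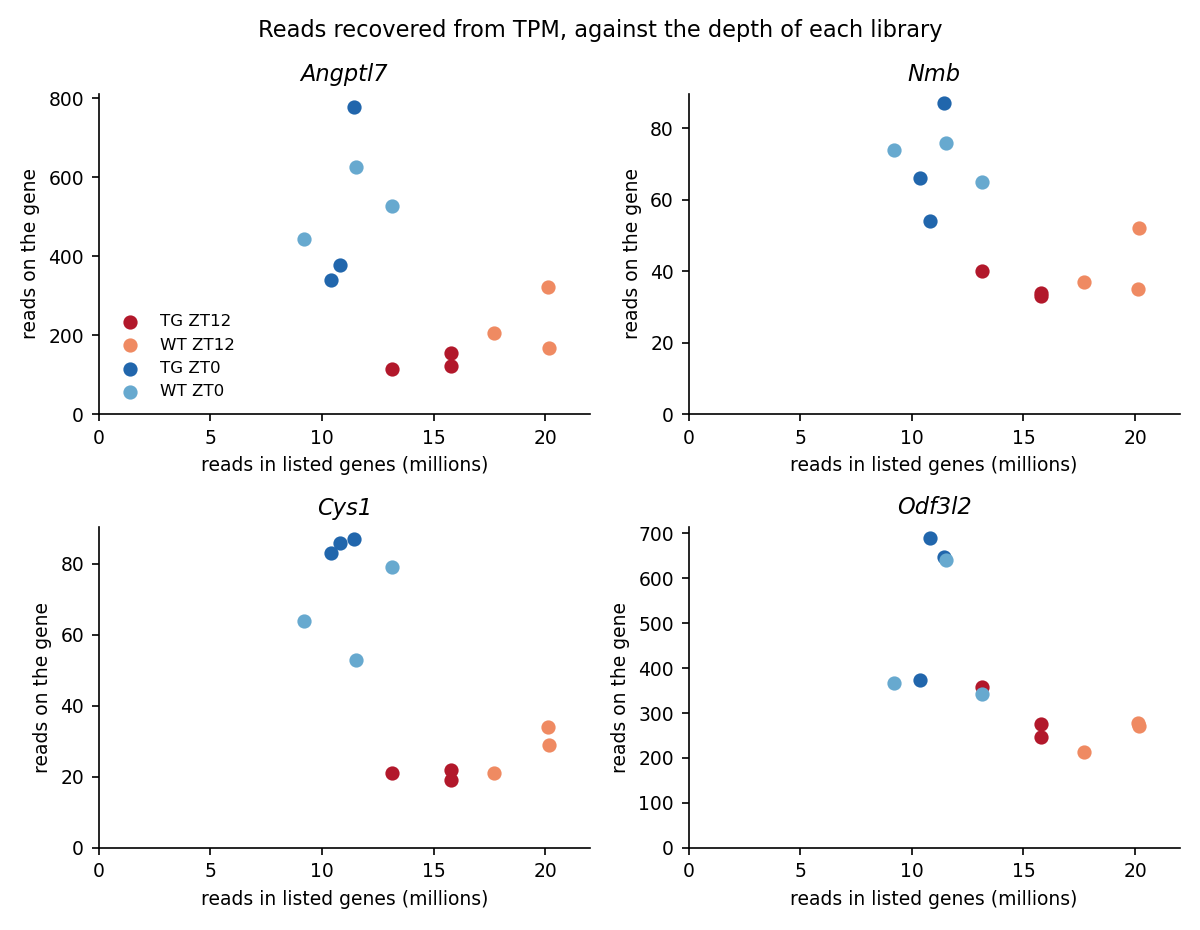
Reads on each gene (vertical axis) against reads in listed genes in units of 1e+06 (horizontal axis) for the 12 libraries, coloured by group. The ZT12 libraries, at 13.1 to 20.2 on that axis, lie to the right of nearly all ZT0 libraries and carry fewer reads on the 4 genes, with overlap in Odf3l2.

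None of the 9 listed genes next to or around the 4 genes was called between ZT12 and ZT0 over both genotypes (limma adjusted p under 0.05). As 1.02% of all genes tested were called, a count over 9 genes cannot show whether neighbours share the pattern. Each of the 9 had a log2 difference below 0, from -0.24 (Exosc10) to -0.03 (Taf1b), against a median of -0.03 over all genes tested. In all of them except Shc2 the highest ZT0 level was that of WT ZT0 replicate 2, the library that stood apart. It sets the upper ends of the ZT0 ranges given below for Mtor and Sec11a. How far the shared sign depends on that library was not tested. Mtor, a kinase of nutrient signalling whose span holds Angptl7, ranged from 2.15 to 5.33 TPM at ZT12 and from 2.89 to 6.33 TPM at ZT0 (log2 difference -0.09, SE 0.17, limma adjusted p = 0.988). Its exons share no base with those of Angptl7 in the GENCODE M21 annotation, but intronic or unspliced reads of Mtor could fall on Angptl7, since the library kit does not mark strand. Nmb shares 163 of its 793 exonic bases in the GENCODE M21 annotation with Sec11a, a signal peptidase subunit on the same strand. Reads of those bases cannot be assigned to 1 gene in that annotation. As the authors annotated the genes, Nmb is 682 bases long and Sec11a starts 10317 bases away, with no overlap. Whether such reads entered the level of Nmb was not tested. Sec11a ranged from 11.2 to 14.7 TPM at ZT12 and from 12.9 to 21.5 TPM at ZT0 (log2 difference -0.16, SE 0.11, limma adjusted p = 0.967). Shc2, a signalling adaptor that lies 1608 bases from Odf3l2, ranged from 2.16 to 2.81 TPM at ZT12 and from 2.25 to 3.70 TPM at ZT0, and the nearest listed neighbour of Cys1 was Taf1b, 107267 bases away.

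The next comparison asked whether liver E4BP4 went with a change of the 4 genes in muscle. limma, a linear model that shares the estimate of spread across genes, was used for it. None of the 4 passed at either time or over both times, and no gene of the 10415 did (0% called in each contrast by limma). At an unadjusted p under 0.05 there were 99 genes at ZT12, 117 at ZT0 and 166 over both times. The median TG minus WT difference of all genes was -0.07 at ZT12 and -0.10 at ZT0. With quantile normalization the median at ZT0 was 0.03, so the differences below are to be read against that shift.

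Odf3l2 had the largest genotype difference of the 4. It averaged 13.3 ± 2.49 TPM in TG ZT12 and 8.92 ± 0.577 TPM in WT ZT12 (SD, n = 3 each), a log2(TPM + 1) difference of 0.51 (SE 0.24, 95% interval -0.003 to 1.03, limma adjusted p = 1.00). All 3 TG libraries of ZT12 lay above all 3 WT libraries, which held for 0.528% of the genes tested, while 4.26% lay wholly below. At ZT0 it averaged 34.9 ± 9.95 TPM in TG and 27.5 ± 8.43 TPM in WT, a difference of 0.34 (SE 0.24, 95% interval -0.18 to 0.85), and the ranges overlapped. It rested on single libraries, at 0.13 without WT ZT0 replicate 2 and 0.56 without TG ZT0 replicate 2. Over both times the difference was 0.43 (SE 0.16, 95% interval 0.08 to 0.77, limma adjusted p = 0.929), which ranked 41 by p among the genes tested. With TG ZT12 replicate 1 and WT ZT0 replicate 2 both left out it was 0.26 (limma adjusted p = 0.848).

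Cys1 averaged 3.57 ± 0.290 TPM in TG ZT0 and 2.74 ± 0.610 TPM in WT ZT0 (SD, n = 3 each), a difference of 0.30 (SE 0.15, 95% interval -0.04 to 0.64, limma adjusted p = 0.998). The TG libraries of ZT0 (3.24 to 3.77 TPM) lay above those of WT (2.04 to 3.13 TPM), as in 1.4% of the genes tested. Without WT ZT0 replicate 3, the lowest of them, the difference was 0.16. At ZT12 the means were 0.634 ± 0.0233 TPM in TG and 0.665 ± 0.116 TPM in WT, a difference of -0.02 (SE 0.15, 95% interval -0.36 to 0.31) whose sign turned under both other scalings (0.015 with median-of-ratios factors, 0.18 with quantile normalization).

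Angptl7 averaged 3.58 ± 0.521 TPM in TG ZT12 and 4.94 ± 1.65 TPM in WT ZT12, and 18.0 ± 6.78 TPM in TG ZT0 and 19.7 ± 1.66 TPM in WT ZT0 (SD, n = 3 each). The difference over both times was -0.26 (SE 0.17, 95% interval -0.62 to 0.10, limma adjusted p = 0.929). Nmb averaged 2.94 ± 0.285 TPM in TG ZT12 and 2.65 ± 0.479 TPM in WT ZT12, and 7.66 ± 1.20 TPM in TG ZT0 and 8.11 ± 1.49 TPM in WT ZT0. Its difference over both times was 0.02 (SE 0.12, 95% interval -0.23 to 0.28, limma adjusted p = 0.961), and its sign turned in some alternatives. These intervals do not show that the levels were the same in both genotypes.

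**Figure D4:**
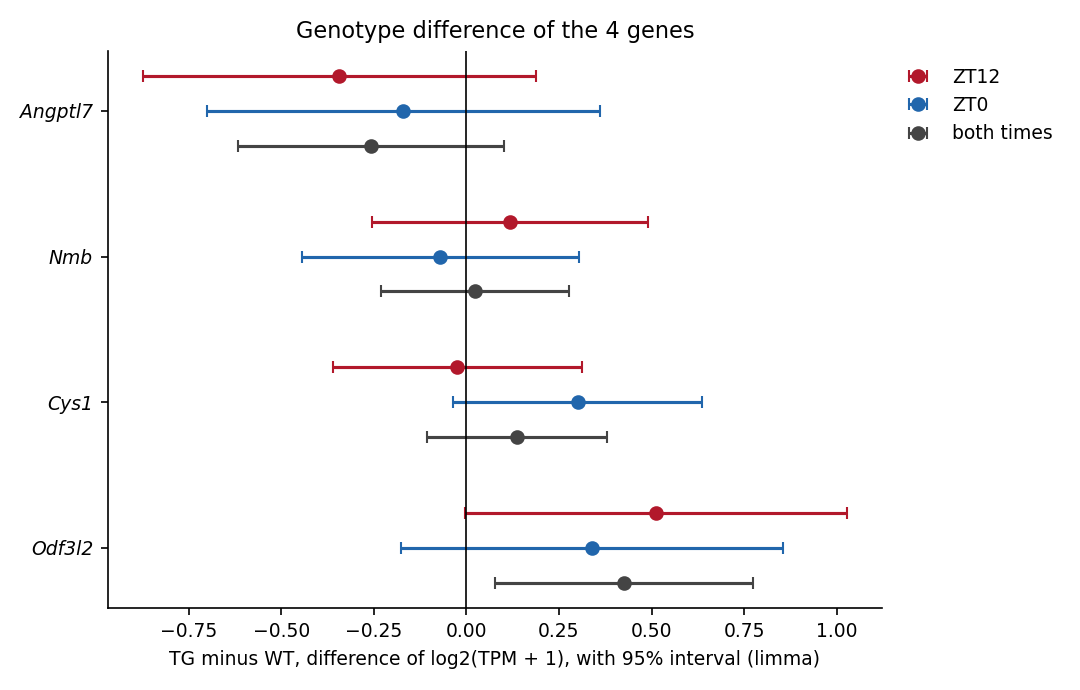
TG minus WT difference of log2(TPM + 1) (horizontal axis) for each gene at ZT12, at ZT0 and over both times, with 95% limma intervals. The interval of Odf3l2 over both times, 0.08 to 0.77, lies above 0 before adjustment over all genes, and the other 11 intervals include 0.

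The size of the time difference could not be shown to differ between the genotypes. The interaction, the ZT12 minus ZT0 difference of TG minus that of WT, was -0.17 for Angptl7 (95% interval -0.92 to 0.58), 0.19 for Nmb (-0.34 to 0.72), -0.33 for Cys1 (-0.80 to 0.15) and 0.17 for Odf3l2 (-0.55 to 0.90). Without 1 library the interaction was 0.06 for Nmb (without WT ZT0 replicate 1) and -0.18 for Cys1 (without WT ZT0 replicate 3), and its sign turned for Angptl7 and Odf3l2. All had a limma adjusted p of 1.00, and 0% of genes were called (69 at an unadjusted p under 0.05). In the authors' deposited tables of each time, the log2 fold changes of TG over WT were smaller. They are not the same measure as the log2(TPM + 1) differences above. The per-library log2 values beside them are drawn towards each gene's mean, and whether this holds for the fold changes was not tested. In the authors' deposited table of ZT12 they were -0.02 for Angptl7, 0.01 for Nmb, 0.0006 for Cys1 and 0.07 for Odf3l2. In the authors' deposited table of ZT0 they were 0.0004 for Angptl7, -0.001 for Nmb, 0.02 for Cys1 and 0.09 for Odf3l2. The adjusted p in the authors' deposited tables was 1.00 for each of the 8 values.

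Over the 12 libraries the 4 genes went together, and within a group they did not. Pearson's r of log2(TPM + 1) over 12 libraries, given as a description since all points share the time difference the genes were chosen on, ran from 0.83 (Angptl7 and Odf3l2) to 0.93 (Nmb and Cys1). After the mean of each group was taken off, it ran from -0.47 (Cys1 and Odf3l2) to 0.17 (Angptl7 and Odf3l2). Libraries high in 1 of the genes for their group were thus not in general high in the others. At ZT12 alone, Angptl7 and Nmb ran opposite ways (r = -0.98 over 6 libraries), and at ZT0 they did not (r = 0.48 over 6 libraries).

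Among 6128 other genes of at least 5 TPM on average, Arrdc3, an arrestin-domain protein that acts on beta-adrenergic receptors, was among the 5 most alike for all 4. Its r over 12 libraries was 0.93 with Angptl7, 0.95 with Nmb, 0.99 with Cys1 and 0.88 with Odf3l2. Arrdc3 ranged from 5.40 to 7.11 TPM at ZT12 and from 16.8 to 23.2 TPM at ZT0. Its r with Cys1 was 0.95 within ZT0 and 0.40 within ZT12 (6 libraries each). Arrdc3 was picked by r over these same 12 libraries, so its values within a time are a description and no separate evidence. With Angptl7 and Nmb its r lay between -0.39 and 0.03 within each time, and with Odf3l2 it was -0.43 at ZT12 and 0.05 at ZT0. Mid1ip1, a regulator of fatty acid synthesis, was shared by Angptl7, Nmb and Cys1, and the alcohol dehydrogenase gene Adh1 by Angptl7 and Nmb.

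The remaining most alike genes differed between the members. Nctc1 and Tle4, a transcriptional corepressor, were alike to Angptl7 (r = 0.92 and 0.90), and Tle4 was also alike to Cys1 (0.95). The glucocorticoid target Tsc22d3 (0.93) and the deubiquitinase gene Usp2 (0.92) were alike to Nmb. The methyltransferase gene Inmt (0.95) and the potassium channel subunit gene Lrrc38 (0.96) were alike to Cys1. Usp2 (0.93), Rangrf (0.93), Arrdc2 (0.91) and the nocturnin gene Noct (0.88) were alike to Odf3l2. Within the times, r between Odf3l2 and Usp2 was 0.54 at ZT12 and 0.67 at ZT0, in the same libraries that picked Usp2.

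The most opposite patterns were led by Nr1d1, which encodes REV-ERB alpha, with r of -0.92 with Angptl7, -0.96 with Nmb and -0.96 with Cys1 over 12 libraries. This r carries the time difference the genes were chosen on, and it did not hold within the times. Within ZT12 it was 0.46 with Angptl7, -0.50 with Nmb and 0.56 with Cys1 (6 libraries). Within ZT0 it was 0.50 with Angptl7, 0.13 with Nmb and -0.51 with Cys1 (6 libraries). Nr1d1 ranged from 52.1 to 80.8 TPM at ZT12 and from 10.3 to 14.0 TPM at ZT0. Pdk4, a kinase that restrains pyruvate dehydrogenase, was opposite to Nmb (-0.94) and Cys1 (-0.96), with 71.8 to 141 TPM at ZT12 and 20.5 to 39.2 TPM at ZT0. Odf3l2 was instead most opposite to Thra, the thyroid hormone receptor alpha gene (-0.95), and to the annexin gene Anxa5 (-0.94). Both relations had the same sign within each time, at -0.66 for Thra and -0.85 for Anxa5 at ZT12, and -0.83 for Thra and -0.93 for Anxa5 at ZT0 (6 libraries each). Thra and Anxa5 were picked for extreme r over these same 12 libraries, so the values within a time are no separate evidence of a relation. Thra overlaps Nr1d1 on the opposite strand, so reads of the shared bases cannot be told apart in an unstranded library.

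**Figure D5:**
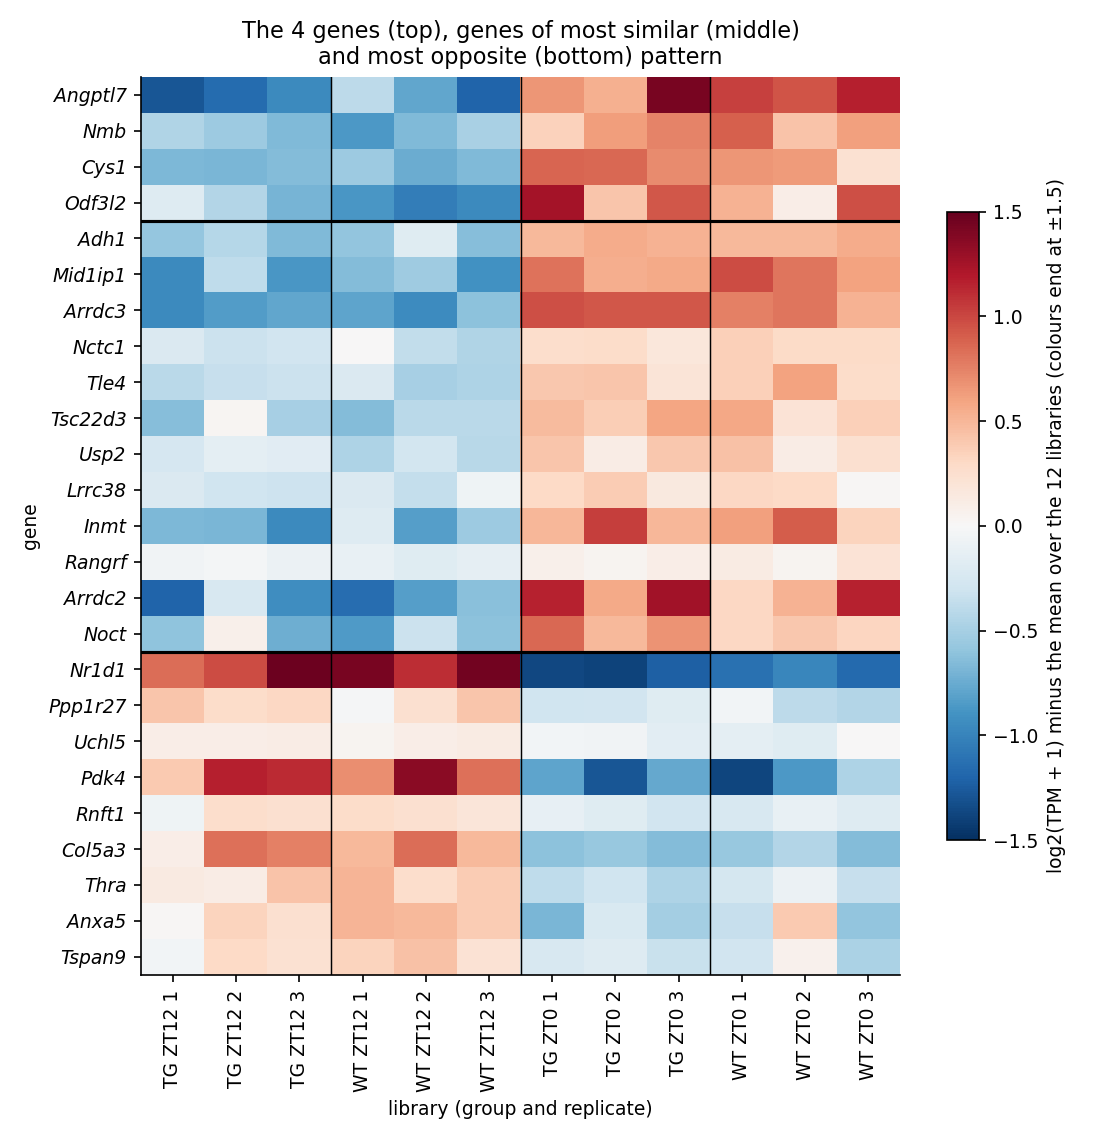
log2(TPM + 1) minus the gene's mean over the 12 libraries (colour, ending at ±1.5) for the 4 genes, the genes of most similar pattern and those of most opposite pattern (rows), by library (columns). Arrdc3 shows the split by time seen in the 4 genes, at 5.40 to 7.11 TPM at ZT12 and 16.8 to 23.2 TPM at ZT0, and Nr1d1 shows it turned round.

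Relatives of the 4 genes were too few to tell from the background, since 1.02% of all genes were called between the times. Of 11 genes of the angiopoietin family and its receptors, 5 were tested and 0 called in either direction, with a median ZT12 minus ZT0 difference of 0.08, against -0.03 over all genes tested. Angptl2, the highest of them, averaged 21.5 ± 4.54 TPM at ZT12 and 23.1 ± 3.76 TPM at ZT0 (SD, n = 6 each). Of 22 genes of the primary cilium and the handling of lipid-anchored proteins, 18 were tested and 0 called (median -0.01, with 9 of 18 below 0). Among these, Arl3, a small GTPase that releases lipid-anchored cargo in the cilium, averaged 55.7 ± 3.36 TPM at ZT12 and 55.3 ± 3.35 TPM at ZT0. Odf2 and Odf2l were the only tested genes of 10 of the outer dense fibre list, with 0 called. None of 8 other bombesin-like peptide, neuromedin and receptor genes, the neuromedin B receptor gene Nmbr included, was among the listed genes, so the receptor's level is not analysed here.

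Some clock and glucocorticoid genes changed with time, and their shares can be read against the 1.02% of all genes called (0.403% higher and 0.614% lower at ZT12). Only genes of at least 1.0 TPM in WT ZT0 replicate 1 are listed, so genes low at ZT0 and raised at ZT12 may be missing from these shares. Of 17 tested core clock genes, 1 was higher and 4 were lower at ZT12 (median -0.23). Nr1d1 was higher, at 68.4 ± 12.7 TPM at ZT12 and 11.9 ± 1.38 TPM at ZT0 (log2 difference 2.42, SE 0.11, limma adjusted p = 8.12e-08). Per2, given above, fell by 1.38 on the log2(TPM + 1) scale, Per1 by 0.78, Per3 by 0.76 and Hlf, a D-box activator, by 0.75 (limma adjusted p of 0.0132 for Per1, 0.00686 for Per3 and 0.00811 for Hlf). The 4 genes described here were chosen for being lower at ZT12, so standing on the same side as these Per genes says nothing further.

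Of 20 tested genes of the glucocorticoid list, 1 was higher and 4 were lower at ZT12 (median -0.14). Glul, glutamine synthetase, averaged 45.7 ± 11.1 TPM at ZT12 and 136 ± 16.8 TPM at ZT0 (SD, n = 6 each, log2 difference -1.57, limma adjusted p = 8.64e-05). Tsc22d3, an anti-inflammatory mediator, averaged 88.2 ± 16.6 TPM at ZT12 and 160 ± 16.6 TPM at ZT0 (limma adjusted p = 0.00164). The transcription factor gene Cebpb and the chaperone gene Fkbp5 fell by 1.02 and 0.92 (limma adjusted p of 0.00263 for Cebpb and 0.0137 for Fkbp5). Fbxo32, a ubiquitin ligase gene of muscle atrophy that glucocorticoids also raise, went the other way, at 43.9 ± 10.2 TPM at ZT12 and 21.6 ± 1.91 TPM at ZT0 (log2 difference 0.97, limma adjusted p = 0.00263). No gene of these 6 lists was called for genotype or for the interaction.

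Markers of 9 cell types were set beside these values. Of 50 tested, 0 were called in any contrast, where 1.02% of all genes were called between the times and 0% for genotype, so the count says nothing of the markers. Nerve and Schwann cell markers had the lowest median (-0.48), with 6 of 6 tested members below 0. Their summed level was 28.2 to 129 TPM in TG ZT12, 73.9 to 130 TPM in WT ZT12, 90.1 to 152 TPM in TG ZT0 and 101 to 128 TPM in WT ZT0. Tendon cell markers had the highest median (0.43), with 0 of 7 below 0, and summed to 67.6 to 96.7 TPM in TG ZT12, 103 to 205 TPM in WT ZT12, 53.5 to 122 TPM in TG ZT0 and 77.4 to 86.4 TPM in WT ZT0. At ZT12 all 7 tendon markers were lower in TG (median -0.64) and all 6 nerve markers too (-0.53), none of them called. This was not particular to these cell types. Every tested fibro-adipogenic (-0.25), endothelial (-0.20), smooth muscle (-0.39) and macrophage marker (-0.33) was also lower in TG at ZT12. The fat cell (-0.13), satellite cell (-0.03) and muscle fibre lists (0.03) were mixed, and the median of all genes tested was -0.07. Medians of the other 7 lists between the times lay between -0.19 (fat cells) and 0.19 (endothelium), with fibro-adipogenic cells at 0.12, smooth muscle at -0.08, satellite cells at 0.03, macrophages at 0.00 and muscle fibre at 0.02. The defining markers Sox10, Mkx, Pax7, Myf5 and Calcr were not among the listed genes. All these sums overlapped between ZT12 and ZT0, and the part of these cell types in the levels of the 4 genes was not tested.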

How the data were processed

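Poly(A) RNA of gastrocnemius muscle was sequenced in 12 libraries made with an unstranded kit from 100 ng of total RNA, per the labels' protocols. On mm10, DESeq2, STAR, bcl2fastq and HOMER 4.11.1 were used, per the submitters' processing notes. TPM values as deposited by the authors cover 10475 genes, each of at least 1.0 TPM in WT ZT0 replicate 1. Genes under that level at ZT0 and higher at ZT12 may thus be missing, which bears on the shares called higher or lower. Per the file headers, HOMER made 1 further table for each time, with a log2 fold change and a p-value, raw and adjusted, that the authors computed for each gene. The deposited per-library log2 values in these tables are drawn towards each gene's mean and were not tested.

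No deposited file used here holds counts. TPM times transcript length gave whole reads (within 0.1 read, for values under 500 reads) for 98.6 to 98.8% of values at 1 scale per library. Intervals cover the spread between libraries only.

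limma 3.58.1 with trend (R 4.3.3) was fitted to log2(TPM + 1) of the genes that reached 1 TPM in 3 or more libraries, with 4 group means, and with an additive model of genotype and time for contrasts over both. Benjamini-Hochberg adjustment ran over all 10415 genes, with calls at an adjusted p under 0.05. The script was tested on simulated data. The 4 genes, the lists and the tests were chosen with earlier results of these data known. Genes named were the 4 genes, the 5 most and 3 least correlated with each, their neighbours, and from each list those called, otherwise up to 4 of the highest level. Alternatives were other scalings, pseudocounts and filters, limma-voom on recovered reads, a replicate block, and left-out libraries. Tables were made with pandas 2.3.3 and numpy 2.4.6 in Python 3.11.15, and figures with matplotlib 3.10.9.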

Additional observations from a re-analysis of the deposited data

How the results depend on the processing

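The ZT12 minus ZT0 difference of the 4 genes was below 0 in all 166 values computed under the alternatives, between -2.48 and -0.45. The genes were chosen for this sign in the same libraries, so these values describe how the size moved and do not test the sign. With a pseudocount of 5 it was -1.39 in TG and -1.32 in WT for Angptl7, -0.67 in TG and -0.77 in WT for Nmb, and -0.61 in TG and -0.45 in WT for Cys1. With a pseudocount of 0.1 it was -1.34 in TG and -1.58 in WT for Nmb, and -2.32 in TG and -1.88 in WT for Cys1, and with limma-voom -1.38 in TG and -1.57 in WT for Nmb, and -2.48 in TG and -1.99 in WT for Cys1. By its construction a larger pseudocount shrinks the difference of low genes. Cys1 did not pass the filter of 5 TPM and has no value there. Leaving out 1 library at a time gave -2.17 to -1.73 in TG and -2.03 to -1.63 in WT for Angptl7, -1.24 to -1.04 in TG and -1.42 to -1.19 in WT for Nmb, -1.54 to -1.45 in TG and -1.30 to -1.08 in WT for Cys1, and -1.53 to -1.12 in TG and -1.69 to -1.26 in WT for Odf3l2.

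No genotype or interaction test of the 4 genes passed in any of 340 values (lowest limma adjusted p 0.618). Signs turned for Nmb at ZT0 (0.028 with median-of-ratios scaling, 0.096 with quantile normalization, -0.18 to 0.053 without 1 library), Nmb over both times (-0.056 with TG ZT12 replicate 1 and WT ZT0 replicate 2 left out, -0.030 to 0.089 without 1 library) and Cys1 at ZT12 (0.015 with median-of-ratios scaling, 0.18 with quantile normalization, -0.072 to 0.027 without 1 library). They turned without 1 library for the interaction of Angptl7 (-0.38 to 0.10) and of Odf3l2 (-0.048 to 0.39). The cause was not tested.

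The 106 genes called between the times became 233 with median-of-ratios scaling, 217 with quantile normalization, 217 with limma-voom, and 464 with the same 2 libraries left out, where 21.3% were lower at ZT12, against 60.4% of the 106. Without 1 library the count ran from 70 (without WT ZT12 replicate 2) to 160 (without TG ZT12 replicate 1, 38.8% lower). The genotype counts of 0 became 2 at ZT12 (Crip1 and S100a4, named after their values were seen) without those 2 libraries, 1 (Prdx5, likewise) at ZT0 in a fit of 2 groups alone, and 0 to 1 at ZT0 without 1 library (Mir6988, without TG ZT12 replicate 3). All 207 values of the clock and glucocorticoid genes named as changed kept their call. Between libraries with the same replicate number, r of the deviations ran from -0.35 to 0.29 (median 0.06, against -0.02 for different numbers). For 5 of 12 libraries the closest other library carried the same number. These values do not settle whether the numbers pair the libraries. A replicate block gave 130 calls between the times and 0 in each genotype contrast, and Odf3l2 over both times had a limma adjusted p of 0.876 with it. Depth limits Cys1 and Nmb most, and a group of 3 libraries limits each genotype comparison.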
